A study of Mus musculus with 6 samples.

Results

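LincRNA-Cox2 is the long noncoding RNA removed in these mice, and the genes described here are that RNA, its neighbour Ptgs2, the antisense transcript Ptgs2os and 5 flanking genes of mouse chromosome 1. They were taken by symbol from the authors' deposited table of all genes, which gave 8 rows of 20494. Whole lung RNA gave 6 sequenced libraries, 3 from wild type mice and 3 from lincRNA-Cox2 knockout mice. All mice were untreated males of the strain C57BL/6, 4 months old. How the knockout allele was made is not given in the sources used here. Loss of the RNA cannot be told apart from loss of the DNA that encodes it.

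Ptgs2 encodes cyclooxygenase-2, the inducible enzyme that turns arachidonic acid into prostaglandin H2, from which the other prostanoids are made. Most tissues hold little of it until cytokines, growth factors or bacterial products switch the gene on, and its mRNA is short-lived. LincRNA-Cox2 has been described as a noncoding RNA induced with Ptgs2 in activated macrophages. The series title names activity of lincRNA-Cox2 in cis, which is an effect on genes of its own chromosome region, so the level of each neighbour was compared between the genotypes.

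The table gives levels as mean normalized counts, which are reads per gene divided by a size factor for each library and averaged over the 3 libraries of a genotype. Its comparison of knockout with wild type comes as a log2 fold change that DESeq2 has shrunk towards 0, with a standard error (SE) and a p-value adjusted over all genes. A gene was called where that adjusted p was under 0.05. The authors' deposited table holds an adjusted p for 16902 genes, of which 1.09% were called, 0.497% lower and 0.592% higher in knockout. Lung markers were present in both genotypes, and none of the 10 was called by DESeq2, with 2 at p under 0.05 before adjustment. Surfactant protein C, for example, stood at 82187 and 83359 normalized counts in wild type and knockout in the authors' deposited table.

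The order of the genes along the chromosome sets out the comparison (mm10, GENCODE M21). Ptgs2 runs on the plus strand from 150100031 to 150108227 on chromosome 1 and has 10 exons in its longest transcript. LincRNA-Cox2, listed as Lincrna-cox2 and annotated as Ptgs2os2, lies downstream of it on the minus strand from 150159043 to 150164948, with 2 exons. The genes are therefore transcribed towards each other, with 50.8 kb between their ends and 64.9 kb between their starts. Ptgs2os runs away from Ptgs2 on the minus strand, from 150099963 down to 150074873, and its annotated start lies 68 bases from that of Ptgs2. On the far side of lincRNA-Cox2 lie Tpr at 228 kb, Prg4 at 284 kb, Hmcn1 at 398 kb and Ivns1abp at 1180 kb. BC003331, an older name of Odr4, did not match a symbol or synonym in the annotation used and was given no position.

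The start regions of Ptgs2 and lincRNA-Cox2 are shown because Ptgs2 and Ptgs2os, whose means were both lower in knockout, have overlapping ones, while lincRNA-Cox2 has a start of its own. The RefSeq promoter windows of Ptgs2 and Ptgs2os, 250 bases before to 50 after each start, have 256 bases in common. Printed here are the first 280 bases of each window, to 30 bases after the start, 5′ to 3′ on the strand of the gene (RefSeq, GRCm38.p6), and capitals mark matches to the motifs named in the next paragraph. The Ptgs2 sequence is chr1:150099781-150100060 (plus strand) and the lincRNA-Cox2 sequence chr1:150164919-150165198 (minus strand).
Ptgs2: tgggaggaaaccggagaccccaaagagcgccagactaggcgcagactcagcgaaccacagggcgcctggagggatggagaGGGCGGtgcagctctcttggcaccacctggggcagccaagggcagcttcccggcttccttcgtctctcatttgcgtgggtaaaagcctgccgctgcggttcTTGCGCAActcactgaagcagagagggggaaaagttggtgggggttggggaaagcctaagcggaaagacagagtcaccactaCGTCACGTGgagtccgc
lincRNA-Cox2: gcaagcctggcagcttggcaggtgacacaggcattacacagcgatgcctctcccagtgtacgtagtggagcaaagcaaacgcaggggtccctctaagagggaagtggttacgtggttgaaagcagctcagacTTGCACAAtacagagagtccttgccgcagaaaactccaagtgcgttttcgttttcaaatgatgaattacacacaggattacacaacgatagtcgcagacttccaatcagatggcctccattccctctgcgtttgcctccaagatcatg

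Motifs were searched in the whole windows, to 50 bases after the start, and each share is over the 32851 RefSeq windows of that same extent. Both genes have the C/EBP letters TTGCNNAA, which 10.8% of windows hold on either strand. The match lies 69 to 62 bases before the Ptgs2 start and 118 to 111 bases before the lincRNA-Cox2 start. The Ptgs2 window further holds the cAMP response core CGTCA, found in 20.8% of windows, at bases 14 to 18 after its start. It overlaps the E-box CACGTG (7.15% of windows) at bases 17 to 22. A GC box GGGCGG, present in 35.7% of windows, lies 170 to 165 bases before the start. The letters TATAAA (13.6% of windows), TGANTCA (7.81%) and the NF-kB consensus (8.46%) were searched on both strands too and are not in either window. These matches describe the sequence and were not tested for function.

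LincRNA-Cox2 was nearly absent from the knockout, which checks the genotype labels. Its level was 311 normalized counts in wild type and 0.666 in knockout in the authors' deposited table, the lowest of all genes with an adjusted p both by ratio and by shrunken log2 fold change (-1.74 ± 0.084 SE, adjusted p = 4.05e-91). Because low group means are sums of whole reads times 1 fixed value per library, reads of single libraries could be worked out. Such a library cannot be matched to a sample of the series, so the letters A, B and C stand for the libraries of each genotype. In knockout library A there was 1 read, in library B 0 and in library C 1. Those 2 reads came to 0.214% of the wild type level, with an exact 95% Poisson interval of 0.0259% to 0.774% that covers counting error only.

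The wild type mean of lincRNA-Cox2 can be written as 8 different sets of reads, so single wild type values are known only as ranges. Over the 8 sets, library A held 252 to 378 reads, library B 18 to 634 and library C 53 to 522. The most even set has 324, 282 and 321 reads. In each of the 8 sets the lowest wild type library stood above the highest knockout library, so the genotypes did not overlap whichever set is true. The log2 ratio of the lincRNA-Cox2 means, -8.87 over all libraries, was -8.28 without knockout library B. It moved most, to -7.83 and -9.42, where wild type library B was left out under the most uneven sets.

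Ptgs2 fell in knockout. The authors' deposited table puts it at 2929 normalized counts in wild type and 298 in knockout, a level 9.83-fold lower. Among genes with an adjusted p only lincRNA-Cox2 had a lower log2 ratio of means than Ptgs2, at -3.30. After shrinkage the authors' deposited table has a log2 fold change of -0.50 ± 0.066 (SE), and its adjusted p is 9.55e-11. It ranked lower by evidence and shrunken size than by ratio, being the 8th lowest p-value of the table and the 8th lowest shrunken fold change.

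The residual Ptgs2 of the knockout was present in each library. The knockout mean can be written in exactly 1 way, as 181 reads in library A, 428 in library B and 291 in library C. Divided by the size factors these are 177, 419 and 298 normalized counts, or 298 ± 121 (SD, n = 3). Library B therefore held 2.37 times the level of library A, and both carried Ptgs2 mRNA well above single reads. Against the wild type mean the libraries were 16.6-fold, 6.99-fold and 9.84-fold lower, in that order. The wild type mean of Ptgs2 is too large for this step, since 1448 sets of reads would give it. In 937 of those sets all wild type libraries lie above the highest knockout library, and in the others at least 1 does not, so whether the genotypes overlap in Ptgs2 is not known from these means.

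**Figure D1:**
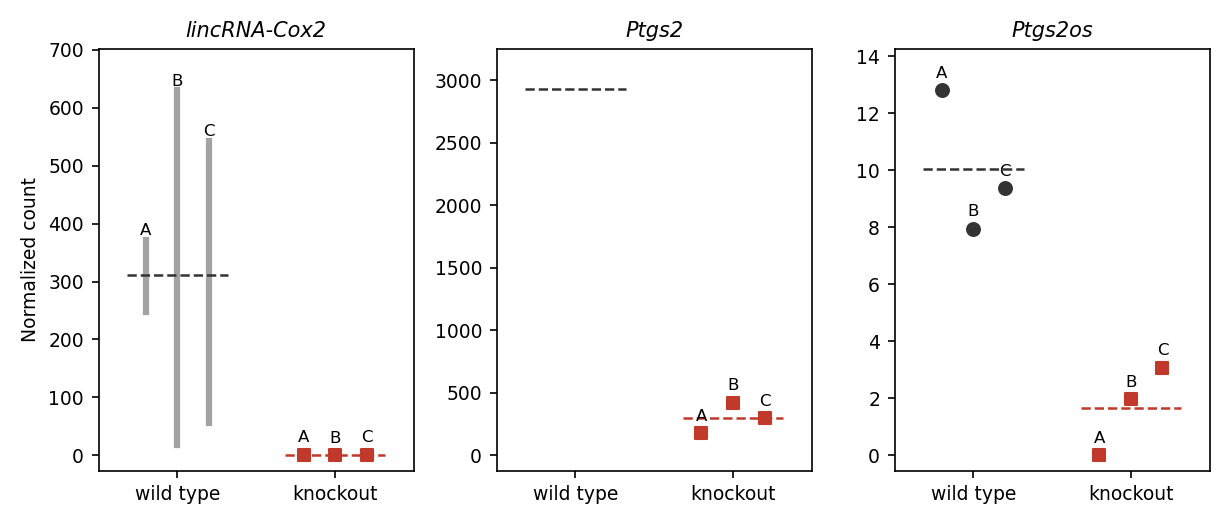
Normalized counts of lincRNA-Cox2, Ptgs2 and Ptgs2os by genotype (linear axes, a scale for each gene). Points are single libraries A to C derived from the group means, dashed lines are the authors' group means, and grey bars are the range over the 8 possible sets for wild type lincRNA-Cox2. The knockout libraries hold 0 or 1 read of lincRNA-Cox2, 177 to 419 normalized counts of Ptgs2 against a wild type mean of 2929, and at most 3.07 of Ptgs2os.

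How strongly DESeq2 shrank the fold change differed among the genes of the locus. Shrinkage left 15.1% of the log2 ratio of Ptgs2 and 19.6% of that of lincRNA-Cox2. At 1906 tested genes with a mean within 1.5-fold of that of Ptgs2 and a log2 ratio of at least 0.05 in either direction, the median left was 82.9%, and 0.472% of them kept less than Ptgs2. The share left depends on the spread between libraries, the read number and the size of the ratio, and these were not separated here. The size of the Ptgs2 decrease is thus 9.83-fold by the means and far smaller by the shrunken estimate, while the direction and the call are those of the same fit.

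Ptgs2os, the noncoding transcript that starts beside Ptgs2 and runs the other way, was scarce in both genotypes. The wild type libraries held 13, 8 and 9 reads and the knockout libraries 0, 2 and 3. All wild type libraries lay above all knockout libraries, and so did 7.66% of 4687 low rows with both means above 0 and up to 40, and 8.14% of 1007 rows with a mean of 5 to 12. In normalized counts the levels were 10.0 ± 2.49 (SD, n = 3) and 1.68 ± 1.55 (SD, n = 3), or 5.99-fold lower in knockout. An exact two-sided permutation test gave p = 0.1, the smallest that 3 against 3 libraries allow.

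The knockout libraries held 5 of the 35 Ptgs2os reads, a share of 14.3% (exact Clopper-Pearson 95% interval 4.81% to 30.3%, counting error only). The unadjusted p in the authors' deposited table was 0.0146. It has no adjusted p there, and Benjamini-Hochberg adjustment over every gene with a p-value gave 0.424 for this DESeq2 test, so the difference did not pass. In knockout library A, which held the fewest Ptgs2 reads, no Ptgs2os read was found, a count of 0 that allows up to 3 reads. The log2 ratio of the Ptgs2os means, -2.58 over all libraries, was -1.997 without knockout library A and -3.36 without knockout library C, so its size rests on single libraries.

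The flanking genes did not pass the test. For Tpr, which encodes a protein of the nuclear pore basket, the authors' deposited table lists 7705 normalized counts in wild type and 8224 in knockout. Its log2 fold change after shrinkage is 0.08 ± 0.056 there (SE, adjusted p = 0.821 by the authors' DESeq2 test), and the 95% interval from that SE runs from -0.03 to 0.19.

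Prg4 encodes lubricin, a secreted glycoprotein that lubricates joint and other surfaces. It had 173 and 175 normalized counts in the authors' deposited table, with a shrunken log2 fold change of 0.01 ± 0.084 (SE), an interval of -0.16 to 0.17 and an adjusted p of 0.998. Hmcn1 encodes hemicentin-1, a large extracellular matrix protein. Its means were 7198 and 7640 and its shrunken log2 fold change 0.06 ± 0.079 (SE) in the authors' deposited table, with an interval of -0.10 to 0.21 and an adjusted p of 0.981.

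BC003331 stood at 2636 and 2627 normalized counts in the authors' deposited table, a difference of -0.328% (interval of the shrunken log2 fold change -0.11 to 0.10, adjusted p = 0.999). Ivns1abp, a Kelch-repeat protein that binds the influenza NS1 protein, is listed in the authors' deposited table at 9815 and 10081 (interval -0.07 to 0.14, adjusted p = 0.991). Of the 7 locus genes with an adjusted p, 2 were called, both lower, and 5 were not. The called pair includes lincRNA-Cox2, the RNA removed in these mice. Over all genes with an adjusted p, 1.09% were called, 0.497% lower. The intervals of those 5 lie between -0.16 and 0.21 on the shrunken log2 scale, whereas that of Ptgs2 runs from -0.63 to -0.37. Such intervals surround estimates shrunk towards 0 and do not bound the ratio of means. For Ptgs2 the interval leaves out its log2 ratio of means, -3.30. Differences between genes were not tested. Libraries were made with a kit that does not mark strand, so reads from overlapping genes cannot be told apart: Tpr shares 204 exonic bases with Prg4 and 176 with Odr4.

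**Figure D2:**
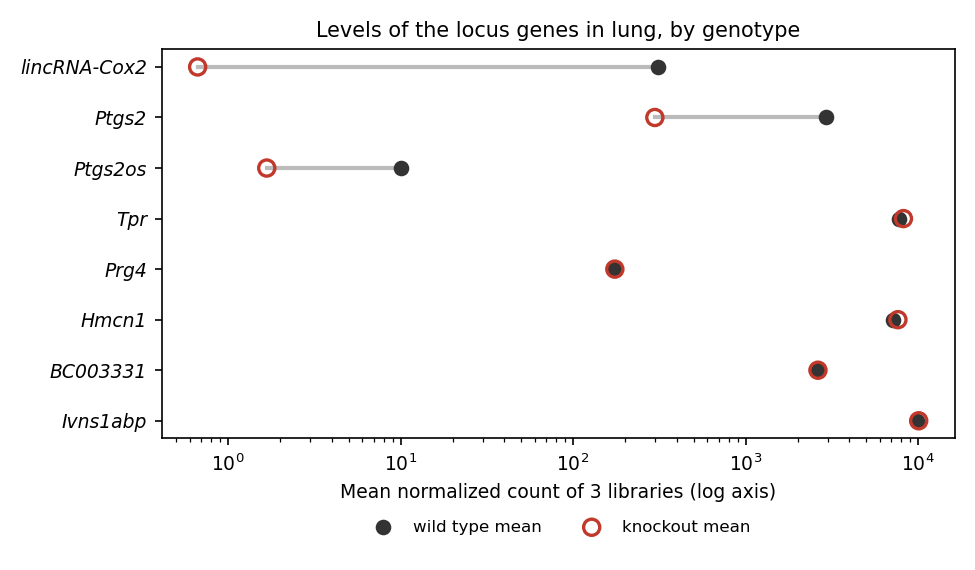
Mean normalized count of 3 libraries (log axis) in wild type, filled points, and knockout, open circles, for the 8 genes. LincRNA-Cox2, Ptgs2 and Ptgs2os are lower in knockout by 467-fold, 9.83-fold and 5.99-fold, while the 5 flanking genes differ by at most 6.74%; Ptgs2os did not pass the test.

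Levels were also compared per kilobase of annotated exon, the scale on which different genes can be set beside each other. In wild type lung the order was Ivns1abp (1806 normalized counts per kb), Tpr (734), Ptgs2 (639), Hmcn1 (340), lincRNA-Cox2 (178), Prg4 (40.3) and Ptgs2os (2.32). On this scale Ptgs2 mRNA in untreated wild type lung was near that of the ubiquitous Tpr, which stood 1.15-fold above it. It was at the 80.6th percentile of all genes with a length and a mean above 0. Length counted the exons of all transcripts together, 10.496 kb for Tpr and 4.58 kb for Ptgs2. Their longest transcripts have 7480 and 4453 bases, so the nearness of Ptgs2 to Tpr depends on this choice of length. LincRNA-Cox2 lay 3.59-fold below Ptgs2 and at the 50.1st percentile.

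In knockout the order changed below Tpr. Ptgs2 stood at 65.0 normalized counts per kb, below Hmcn1 (361) and above Prg4 (40.8), and Tpr (783) was far above it. Ptgs2os (0.387) and lincRNA-Cox2 (0.382) closed the order, on 5 and 2 reads, too few to rank them against each other. Which neighbours in these orders differ beyond the spread of libraries could not be judged, since the table holds no spread of levels for most of them.

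Widening the view from the chosen genes to each gene placed within 1 Mb of lincRNA-Cox2 gave 9 rows, 6 of them with an adjusted p. The same pair, the removed lincRNA-Cox2 and Ptgs2, was called, against 1.09% of all genes. BC003331 was given no position and is not among these rows, although Odr4, annotated from 150361305 to 150393080, lies in this window. It was not called (adjusted p = 0.999 in the authors' deposited table). The flanking gene beyond Ptgs2 is Pla2g4a, whose phospholipase frees the arachidonic acid that cyclooxygenases use. It lies 198 kb from lincRNA-Cox2 and had a log2 ratio of means of -0.16 (1277 in wild type and 1140 in knockout by the authors' deposited table, whose adjusted p is 0.772). Pdc, encoding the photoreceptor protein phosducin, had 1 read in all in wild type and 5 in knockout. C730036E19Rik, a noncoding RNA 973 kb away, had 14, 11 and 17 reads in the wild type libraries and 4, 10 and 4 in the knockout libraries. All wild type libraries lay above all knockout libraries there, as in 7.66% of 4687 low rows with both means above 0 and up to 40. The unadjusted p of C730036E19Rik in the authors' deposited table was 0.0681 and it has no adjusted p. Over all libraries Pdc rests on 6 reads, Ptgs2os on 35 and C730036E19Rik on 60.

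**Figure D3:**
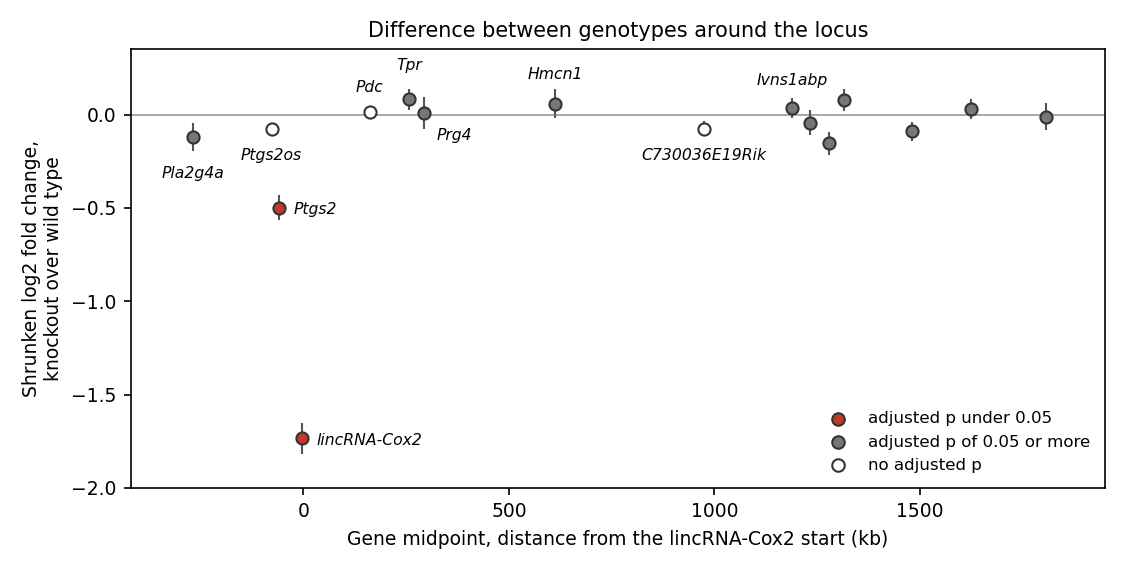
Log2 fold change after shrinkage, knockout relative to wild type (points, bars 1 SE) for the 16 rows placed within 2 Mb of lincRNA-Cox2, against the distance of each gene's midpoint from the lincRNA-Cox2 start (kb, negative towards Ptgs2). LincRNA-Cox2 at -1.74 and Ptgs2 at -0.50 are the called genes, and the next lowest is Trmt1l at -0.15. Open points have no adjusted p, and BC003331, given no position, is not shown.

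The genes whose difference was most like that of Ptgs2 were sought among 176 called genes, those averaging 50 or more normalized counts, by the distance between log2 ratios of the 2 group means. The nearest were Atf3, Nr4a1 and Apold1. Atf3, a stress-induced transcription factor, is 4.55-fold lower by the means of the authors' deposited table, 4602 and 1010 (log2 fold change after shrinkage -0.17 ± 0.048 SE, adjusted p = 0.0413). Nr4a1, a nuclear receptor of the early response, was 3.31-fold lower (adjusted p = 0.00256), and Apold1, an endothelial early response gene, was 3.17-fold lower (adjusted p = 0.0225), both by the authors' deposited table. Shrinkage left 7.80%, 16.4% and 13.3% of their log2 ratios, against 15.1% for Ptgs2. The genes nearest lincRNA-Cox2 by the same measure were Ptgs2, Atf3 and Nr4a1, at distances of 5.57, 6.68 and 7.14, so none is close to it.

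The prostanoid pathway around Ptgs2 was examined gene by gene. Of 32 listed genes 28 had an adjusted p, and Ptgs2 was the gene called, lower. With 1.09% of all genes called, a list of this length would hold few calls, so the lack of others is not a result about the pathway. Without adjustment, 2 of the 28 had p under 0.05 by DESeq2, as did 8.47% of all 16902 genes. The median log2 ratio of the 28 was -0.06, against -0.00 over all tested genes. Of the 28, 21 were below their wild type mean, a larger share than the 8550 of all 16902. Among the enzymes, Ptgs1, the constitutive cyclooxygenase, stood at 2954 and 2894 normalized counts in the authors' deposited table (log2 ratio -0.03, adjusted p = 0.997). Ptges, the inducible prostaglandin E synthase that often works with Ptgs2, had means of 1399 and 1268 (adjusted p = 0.843 in the authors' deposited table).

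Breakdown and transport genes showed no DESeq2 call among 6, and 0 had p under 0.05 before adjustment. Hpgd, which inactivates prostaglandins, and the uptake transporter Slco2a1 had log2 ratios of -0.04 and -0.11. Among the receptors for prostaglandin E2, the log2 ratios were -0.15 for Ptger1, 0.09 for Ptger2, -0.06 for Ptger3 and -0.21 for Ptger4. Ptger1 had an unadjusted p of 0.0303 and an adjusted p of 0.493 in the authors' deposited table, and the adjusted p-values of the other 3 were 0.991, 0.997 and 0.743.

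Genes known to control Ptgs2 transcription or the stability of its mRNA were examined next, since several of them are themselves early response genes. Of 20 such genes, each with an adjusted p, 2 were called, both lower. Over all genes 1.09% were called, 0.497% of them lower in knockout as a share of all tested. Before adjustment 6 of the 20 had p under 0.05 by DESeq2, against 8.47% of all genes. The called genes were Egr1 and Zfp36. Egr1, an early response transcription factor, had 17484 in wild type and 7436 in knockout by the authors' deposited table (adjusted p = 0.0464). The Zfp36 protein binds AU-rich mRNAs such as that of Ptgs2 and speeds their decay. Zfp36 had 20121 and 10150 normalized counts in the authors' deposited table, a shrunken log2 fold change of -0.33 ± 0.080 (SE) and an adjusted p of 0.00746. The call of Egr1 ends when p-values are adjusted over every gene, without the filter on low means.

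The AP-1 genes Fos and Jun had log2 ratios of -0.98 and -0.57, with adjusted p-values of 0.149 and 0.187 in the authors' deposited table. Nfkb1, Rela, Cebpb, Cebpd and Creb1, encoding factors that bind motifs of the kinds searched above, had log2 ratios of -0.04, -0.10, -0.17, -0.24 and 0.02 with no call. Cebpd had an unadjusted p of 0.0469 and an adjusted p of 0.578 by the authors' deposited table. The median of the 20 was -0.09 and 16 were below their wild type mean. The group means of Egr1 and Zfp36 were lower together with that of Ptgs2, and their part in the Ptgs2 result was not tested.

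Genes linked to lincRNA-Cox2 in cultured macrophages were examined too, with 2 RNA-binding proteins reported as its partners. Of 18 genes 17 had an adjusted p and 0 were called by the DESeq2 test of the authors. Since 1.09% of all genes were called, a list this short would hold few calls. The lack of calls is therefore not a result about these genes. The median log2 ratio of the 17 was -0.11, and 12 were below their wild type mean, against 8550 of all 16902 tested genes. The direction reported for each gene was not taken into account and the partners are included, so this median and count do not measure a response to lincRNA-Cox2. Without adjustment, 2 of the 17 had p under 0.05, Il6 and Tlr2, a share near the 8.47% of all genes. The cytokine gene Il6 had 64.7 and 29.4 normalized counts in the authors' deposited table (log2 ratio -1.14, adjusted p = 0.124), and Tlr2, a receptor for bacterial lipopeptides, had a log2 ratio of -0.21 (adjusted p = 0.217). Ccl5, a chemokine gene, had a log2 ratio of -0.01. The partners Hnrnpab and Hnrnpa2b1 were at -0.01 and 0.03.

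**Figure D4:**
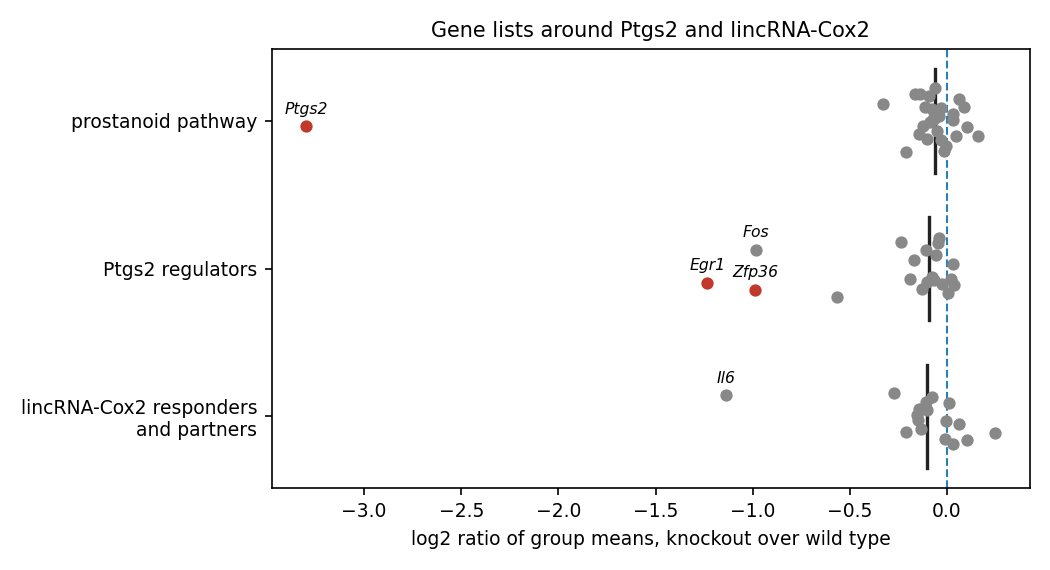
Log2 ratio of group means, knockout over wild type, for tested members of the 3 lists (points, red where adjusted p is under 0.05; vertical spread is for legibility only). Black bars are the list medians of -0.06, -0.09 and -0.11, and the dashed line is the median of all tested genes; Ptgs2 at -3.30 stands apart from the other prostanoid genes.

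Cell type markers were measured beside these results, because in bulk tissue fewer cells of a type and less RNA per cell cannot be told apart. All 5 neutrophil markers were called higher in knockout, against 0.592% of all genes, with a median log2 ratio of 0.68. By the authors' deposited table their levels sum to 6420.5 in wild type and 10636 in knockout, opposite in direction to Ptgs2. Monocyte and macrophage markers summed to 12786 and 14033 with 0 of 5 called by DESeq2, though 4 had p under 0.05 without adjustment. Fibroblast markers (23997 and 23132) and smooth muscle markers (15999 and 13639) had 0 of 3 called each by DESeq2, with 0 and 1 of them at p under 0.05 without adjustment.

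Markers of other tissue that can be taken with the lung were measured as well, and none of those with an adjusted p was called. The 3 mesothelial markers Msln, Wt1 and Upk3b summed to 434 normalized counts in wild type and 2985 in knockout in the authors' deposited table. That table gives no p-value for any of them, so they could not be called. By default DESeq2 withholds the p-value of a gene with reads where a library holds an extreme count, and 17 rows lack one. Values of these 3 genes in single libraries were not examined, so how far the higher knockout sum rests on a single library is not known. Cardiac muscle markers summed to 11436 and 9127, and the 2 red cell markers found of 3 listed to 40301 and 43594, with none called by DESeq2 and, before adjustment, 1 and 0 at p under 0.05. Thymus markers summed to 387 and 422. None of the markers found was at 0 in either genotype. The part of these marker levels in the Ptgs2 result was not tested.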

How the data were processed

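Per the labels' protocols, total RNA of whole lung was made into libraries with a TruSeq RNA kit and read as 50 bp paired ends. The submitters' processing notes name STAR 2.5.1b, Bowtie2, SAMtools, bedtools, DESeq2 and mm10; the counting rule is not given in the sources used here. Per the file headers, the authors deposited group means, a signal in normalized counts, with a shrunken log2 fold change and its standard error. The deposited table also has the Wald statistic, a score, with its p-value before and after adjustment, from the authors' DESeq2 test. No count model was fitted.

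Reads per library were derived from group means up to 40, each of which had exactly 1 solution (4901 wild type and 4877 knockout means), and from the knockout mean of Ptgs2, printed to more decimals. This gave relative size factors of 0.961 to 1.03; library totals are not known. The step recovered 100% of 4801 simulated wild type means up to 40, a range that leaves out the knockout mean of Ptgs2. The labels do not say that the libraries came from separate mice, so p-values measure the spread between these libraries, which may be technical. Lengths and positions came from GENCODE M21, through RefSeq synonyms where needed. Named were the 8 genes, genes within 1 Mb, called list members, the prostaglandin E2 genes and the 3 nearest genes; other list members named, such as Ptgs1, Fos and Il6, were chosen after their values were seen. Members and lists were chosen with earlier results of these data known. Python 3.11.15 and scipy 1.17.1 were used.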

Additional observations from a re-analysis of the deposited data

How the results depend on the processing

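The calls of lincRNA-Cox2 and Ptgs2 held with p-values adjusted over every gene, over genes with a mean of at least 50, and over genes off chromosome 1, with adjusted p-values of the DESeq2 test from 3.64e-91 to 4.90e-91 and from 9.55e-11 to 1.44e-10. The log2 ratio of means, a pseudocount of 1 and rescaling kept the direction of each of the 8 genes; these settings change the size of a difference and leave its p-value as it was, so they do not test the calls. Leaving out 1 library at a time gave log2 ratios of means from -3.63 to -3.03 for Ptgs2 (knockout libraries only), from -3.36 to -1.997 for Ptgs2os, and from -9.42 to -7.83 for lincRNA-Cox2 over its 8 sets; these are values with no test. Among regulators of Ptgs2, the count called went from 2 to 1 (Zfp36) with no filter on low means, where more genes were tested. Without members on chromosome 1, an alternative chosen after the data were seen, the prostanoid count went from 1 to 0, since Ptgs2 lies there. No paired analysis was possible because the labels give no replicate numbers (those used here follow accession order) and the libraries A to C cannot be linked to samples. Depth limits Ptgs2os, Pdc and C730036E19Rik.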

Other observations

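Beyond Ivns1abp, 6 further rows lie within 2 Mb of lincRNA-Cox2, and none was called. Trmt1l, encoding a tRNA methyltransferase-like protein 1264 kb away, had 1302 and 1146 normalized counts in wild type and knockout in the authors' deposited table (unadjusted p = 0.0143, adjusted p = 0.348). Rnf2, the catalytic ubiquitin ligase of Polycomb repressive complex 1, had 1752 and 1867 normalized counts in the authors' deposited table (adjusted p = 0.88). With this window, 13 rows had an adjusted p and 2 were called, the removed lincRNA-Cox2 and Ptgs2, against 1.09% of all genes. BC003331, which was given no position, is not counted.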
